A study of Rattus norvegicus with 10 samples.

Results

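Sertoli cells line the seminiferous tubules and pass secreted proteins to the germ cells and into the tubule fluid. The genes described here encode 7 such proteins: clusterin (Clu), transferrin (Tf), cathepsin L (Ctsl), the androgen-binding protein of the tubule (Shbg), the cystatins Cst9 and Cst12, and the beta-defensin Defb36. They were chosen by name, and their probes were found through the RefSeq transcript that each probe was designed on. Every gene had exactly 1 probe found in this way. The 12377 probes without a symbol were not searched for further ones. The set thus held 7 of 30367 probes on the array, and all 7 were among the 21892 probes bright enough to be tested. Each was well above background on 10 of 10 arrays, so each level given was a measured signal and not a bound. The RefSeq gene table used for names lists Cst9 under the symbol Cst9l.

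The 10 one-colour Agilent arrays measured RNA from rat testis at postnatal day 6, and each array carried its own sire code. The pups were offspring of Brown Norway males and Sprague Dawley females. The males had been given saline or BEP for 9 weeks and had then recovered for 9 weeks, so all pups shared the cross, the age and the schedule of their fathers, and differed in what the fathers had been given. The letter C stands in the sire code of 5 arrays and the letter T in that of the other 5. The code ends in 2R for C replicate 5 and T replicates 4 and 5, and in 1R for the others. What this ending stands for is not known here. Reading C as saline and T as BEP is an inference, since no label says so. BEP commonly stands for bleomycin, etoposide and cisplatin, a drug combination against testicular cancer, which the labels do not write out. How many pups an array stands for is not stated in the labels. The p-values below measure only the spread between these samples. In whole testis, fewer Sertoli cells and less RNA per Sertoli cell cannot be told apart. The tissue label was checked on other Sertoli genes: Wt1, Gata4, Fshr, Cldn11, Amh and Inha were each well above background on 10 of 10 arrays, and Sox9 had 0 named probes.

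These proteins have distinct roles in the tubule. Clusterin is an extracellular chaperone and lipid carrier that was found as a major protein of Sertoli cell medium. Transferrin carries iron to germ cells, which in the adult are kept from the blood by the junctions between Sertoli cells. Cathepsin L is a lysosomal cysteine protease that Sertoli cells also secrete, and cystatins as a family inhibit cysteine proteases of this kind. The androgen-binding protein holds testosterone in the tubule fluid and comes from the gene that in many mammals also gives the plasma globulin SHBG. Beta-defensins are small cationic peptides, many of which are made in the epididymis and testis.

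The arrays gave comparable data. They lay on 2 slides, with C replicates 1 to 3 and T replicates 1 and 2 on slide 1 and the other 5 arrays on slide 2. The 75th percentile of the signal, the level to which each array was scaled, ran from 1525.3 units on C replicate 1 to 2685.8 units on C replicate 3. The share of probes well above background was 70.4% to 74.8%. All levels below are log2 values relative to that percentile, so a difference of 1 is 2.0-fold and a negative level means a signal under the percentile. Levels of different probes are not set against each other, because probes differ in how strongly they bind. The 7 genes lay at raw signals from 307 units, the dimmest value of Cst12, to 25213 units, the brightest of Ctsl.

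The promoters of Tf, Ctsl and Defb36 are shown first, because the levels of these genes rose and fell together over the arrays, as described further on. The RefSeq promoter table for rat (assembly GRCr8) held 5 of the 7 genes, and each entry spans 250 bases before to 50 bases after the start of the gene. The Tf window is chr8:112695327-112695626 on the minus strand, the Ctsl window is chr17:769854-770153 on the plus strand, and the Defb36 window is chr3:161538026-161538325 on the plus strand. Capitals mark the matches to 7 short motifs searched on both strands.
Tf: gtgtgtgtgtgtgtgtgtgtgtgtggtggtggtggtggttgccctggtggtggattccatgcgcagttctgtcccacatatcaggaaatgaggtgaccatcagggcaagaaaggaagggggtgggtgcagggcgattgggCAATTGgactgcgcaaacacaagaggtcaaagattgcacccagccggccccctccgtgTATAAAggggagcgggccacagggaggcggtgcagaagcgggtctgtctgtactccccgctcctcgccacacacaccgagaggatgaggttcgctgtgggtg
Ctsl: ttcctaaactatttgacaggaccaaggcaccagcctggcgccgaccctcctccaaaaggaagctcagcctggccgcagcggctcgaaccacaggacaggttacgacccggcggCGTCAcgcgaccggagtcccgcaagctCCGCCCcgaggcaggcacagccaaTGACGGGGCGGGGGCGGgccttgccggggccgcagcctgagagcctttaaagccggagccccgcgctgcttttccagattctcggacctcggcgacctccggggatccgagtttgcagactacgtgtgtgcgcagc
Defb36: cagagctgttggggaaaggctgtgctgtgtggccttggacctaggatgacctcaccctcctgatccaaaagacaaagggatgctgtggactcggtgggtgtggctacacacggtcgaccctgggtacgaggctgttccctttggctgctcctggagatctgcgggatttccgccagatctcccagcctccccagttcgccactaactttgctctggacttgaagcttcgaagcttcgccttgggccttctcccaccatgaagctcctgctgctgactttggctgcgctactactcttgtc
The motifs were the GC box (GGGCGG), the TATA box (TATAAA), the core of SOX sites (ACAAT), the core of GATA sites (AGATAA), the site of steroidogenic factor (AAGGTCA), the core of cAMP response elements (TGACG) and the E-box (CANNTG). The Tf window held 1 TATA box, whose first base lies at -52 from the start, and 1 E-box at -110. The Ctsl window held 3 GC boxes and 2 cAMP response cores, of which 1 core and 2 GC boxes adjoin without overlap. The Defb36 window held 0 matches to the 7 motifs. The Shbg window held 1 GATA core and 3 E-boxes, and the Cst12 window held 1 E-box. Among all 33469 promoters of the table, 33.1% held a GC box, 14.2% a TATA box, 33.7% a SOX core, 11.6% a GATA core, 4.61% the steroidogenic factor site, 21.2% a cAMP response core and 72.1% an E-box. The 3 windows printed above thus share 0 of the motifs searched. G and C made up 59.7% of the Tf window, 66.7% of the Ctsl window and 57.7% of the Defb36 window, against 55.7% for Shbg and 54.3% for Cst12. A match or its absence describes these letters and says nothing of a factor.

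The first question was whether any of these genes differed between the testes of T and C offspring. None of the 7 passed the test: limma gave an adjusted p of 0.9985 for each, and 0 of 7 were called, beside 0.0% of the 21892 tested probes. At an unadjusted p under 0.05, 0 of 7 were called as well, beside 3.97% of the tested probes (869). The T and C arrays overlapped for 7 of 7 genes, while 0.722% of probes had groups that did not overlap. The difference, T minus C, was above 0 for 4 genes and below 0 for 3, with a median of 0.031 on the log2 scale against -0.02 over all tested probes. The 95% interval of the difference left out a 2.0-fold change in either direction for 7 of 7 genes, as for 97.4% of the tested probes. It left out a 1.5-fold change for 5 of 7, as for 86.8% of probes, and the exceptions were Shbg and Cst12. Missing the threshold does not show that the levels were equal, and the intervals are the bounds that these arrays allow.

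**Figure D1:**
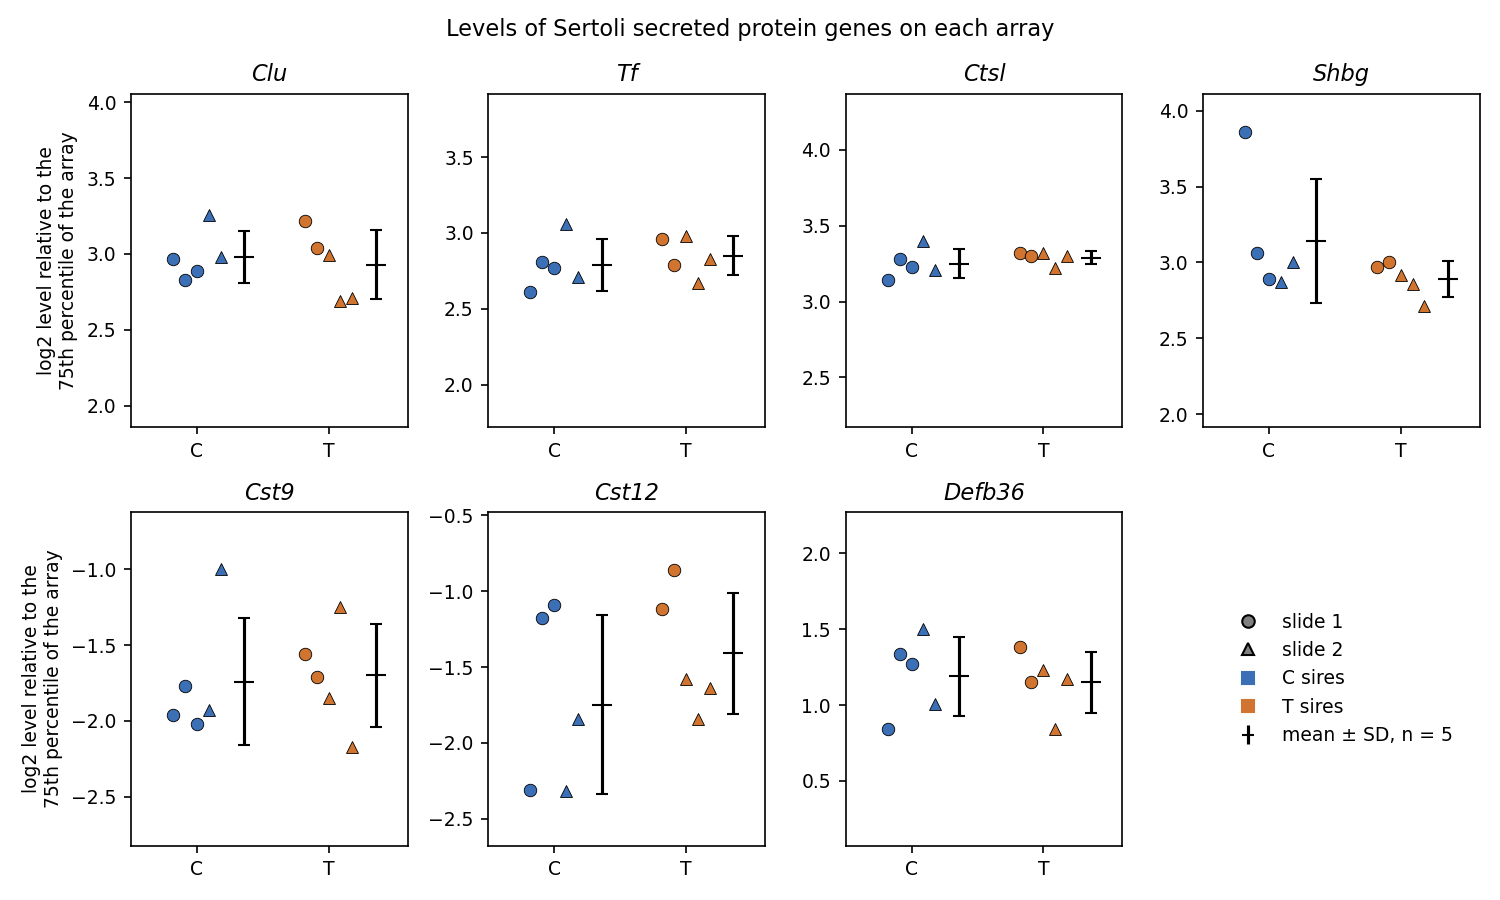
Level of each gene on each array (log2 relative to the 75th percentile of the array) for C sires (blue) and T sires (orange), with circles for slide 1, triangles for slide 2 and the mean ± SD of 5 arrays beside the points; each panel has its own position but the same height of scale. The groups overlap in all 7 panels, and the isolated points are Shbg on C replicate 1 at 3.86 and Cst9 on C replicate 5 at -1.0.

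Clusterin, the chaperone and lipid carrier, was measured with 10 spots on each array. Its log2 levels were 2.97, 2.83, 2.89, 3.26 and 2.98 on C replicates 1 to 5 and 3.22, 3.04, 2.99, 2.69 and 2.71 on T replicates 1 to 5. The T arrays covered both ends of the range, with T replicates 4 and 5 under every C array and T replicate 1 close to the highest, C replicate 4. The means were 2.98 ± 0.17 (SD, n = 5) in C and 2.93 ± 0.23 in T, a difference of -0.053 ± 0.12 (SE), with a 95% interval from -0.32 to 0.21 (limma, adjusted p = 0.9985). The sign of the difference was not the same on the 2 slides, which was also so for Tf, Ctsl, Cst9 and Defb36. On slide 1 the T arrays lay above the C arrays, by 0.24 ± 0.11 in the mean. On slide 2 the T mean lay below the C mean, by a T minus C of -0.32 ± 0.14, but the groups overlapped. With 3 C and 2 T arrays on slide 1, the groups did not overlap for 3 of the 7 genes (Clu, Ctsl and Cst9), beside 18.2% of all probes. With 2 C and 3 T arrays on slide 2, they did not overlap for 1 of 7 (Cst12), beside 18.7%. A test of this reversal, added after the within-slide values were seen, gave -0.56 ± 0.18 (limma interaction of group and slide, adjusted p = 0.992). Clusterin was the 1 gene of the 7 with an unadjusted p under 0.05 in that test, as were 3.15% of all tested probes, and 0.0% passed after adjustment. With slide as a block the difference was -0.042.

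Transferrin, the iron carrier, had levels of 2.61, 2.81, 2.77, 3.06 and 2.71 in C and 2.96, 2.79, 2.98, 2.67 and 2.83 in T. The extremes were both C arrays, replicate 1 at the bottom and replicate 4 at the top, and all T arrays lay between them. The difference was 0.054 ± 0.094, with an interval from -0.15 to 0.26 (limma, adjusted p = 0.9985). Of 16 tested genes that take up, store and export iron, 10 were higher and 6 lower in T, with a median difference of 0.025 and 0 called at an unadjusted p under 0.05. The transferrin receptor Tfrc, which takes transferrin into the cell, differed by -0.026 ± 0.077. The genes of that list with the smallest p were Slc25a37, the mitochondrial iron importer mitoferrin, at 0.30 ± 0.16, Ncoa4, which delivers ferritin to autophagy, at -0.11 ± 0.058, and Aco1, the iron-sensing aconitase, at -0.069 ± 0.058 (limma, adjusted p = 0.9985 for each).

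Cathepsin L, the lysosomal protease, was the steadiest of the 7. Its levels were 3.14, 3.28, 3.23, 3.40 and 3.21 in C and 3.32, 3.30, 3.32, 3.22 and 3.30 in T. All 10 arrays lay within 1.2-fold, and the T range fell inside the C range. The difference was 0.041 ± 0.061, with an interval from -0.094 to 0.18 (limma, adjusted p = 0.9985). Of 13 other lysosomal genes tested, most of them cathepsins, 7 were higher and 6 lower in T, the median was 0.0051, and 0 were called at an unadjusted p under 0.05. Ctse, an aspartic protease, had the smallest p with 0.15 ± 0.075, followed by Ctss, a cysteine protease of antigen-presenting cells, at -0.11 ± 0.088 and the lysosomal membrane protein Lamp1 at -0.11 ± 0.097.

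Shbg, which encodes the androgen-binding protein, stood out through a single array. Its levels were 3.86, 3.06, 2.89, 2.87 and 3.00 in C and 2.97, 3.00, 2.92, 2.86 and 2.71 in T. C replicate 1 lay 0.8 above the next array, 1.74-fold, and the other 9 arrays covered 2.71 to 3.06. A gap of that size above the next array was seen on C replicate 1 for 26 of 21870 probes, this one included, and that array was the highest of the 10 for 28.8% of probes. The difference was -0.24 ± 0.17, 1.18-fold higher in C, with an interval from -0.63 to 0.14 (limma, adjusted p = 0.9985). Without C replicate 1 it was -0.063 ± 0.077. That array also had the lowest 75th percentile of the signal and a raised score of the fat cell list, 0.90 (the mean log2 level of the list's genes, each relative to its own mean over the arrays) against -0.39 to 0.26 on the other 9 arrays. List scores also peaked there for beta-defensins (0.28), clusterin and SHBG receptors (0.22), peritubular genes (0.18) and endothelial genes (0.18). The fat cell score had r = 0.85 with Shbg over the 10 arrays and 0.19 without C replicate 1, as a description. It ran from -0.39 to 0.90 in C and from -0.19 to -0.0006 in T, and 6 of the 9 listed genes on the array were tested. Of these 6 genes, 3 (Fabp4, Retn and Lpl) were highest on C replicate 1, and the other 3 (Ucp1, Cidea and Cfd) were within 0.2 of their own means there. Fabp4, the fatty acid carrier of fat cells, was at -4.22 on C replicate 1 and between -7.09 and -5.46 elsewhere. Of the genes that define fat cells, Adipoq was well above background on 3 of 10 arrays, Cidec and Lep on 0 of 10, and Plin1 had 0 named probes. The part of this array's make-up in its Shbg level was not tested.

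Clusterin and the androgen-binding protein are taken up through receptors on other cells. Of 9 tested receptors and partners, 4 were higher and 5 lower in T, the median was -0.011 and 0 were called at an unadjusted p under 0.05. Apoe, a lipid carrier that shares receptors with clusterin, differed by -0.11 ± 0.087, the receptor megalin (Lrp2), which takes up clusterin and androgen-binding protein, by 0.15 ± 0.25, and the related receptor Lrp1 by -0.068 ± 0.12.

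The cystatins were the most variable of the 7. Cst9 had levels of -1.96, -1.77, -2.02, -1.93 and -1.0 in C and -1.56, -1.71, -1.85, -1.25 and -2.17 in T. C replicate 5 and T replicate 4 were high, 1 array in each group, and T replicate 5 was the lowest. The difference was 0.031 ± 0.22, with an interval from -0.45 to 0.51 (limma, adjusted p = 0.9985), and it was 0.28 within slide 1 and -0.29 within slide 2. Of 20 tested duct genes, 2 also had C replicate 5 and T replicate 4 as their highest arrays, and the other 18 did not. These 2 genes were chosen after their values were seen, and the share of all tested probes with that pattern was not counted. Of the other 18, Pax8, Krt19 and Cldn3 were highest on T replicate 3. Lcn12, a lipocalin of the epididymis, was at -0.82 on C replicate 5 and -0.67 on T replicate 4 against -1.38 to -1.0 on the other 8. The chloride channel Cftr was at -5.28 and -4.38 against -6.66 to -5.85. The score of the whole duct list, with 20 of its 24 genes on the array tested, was 0.11 and 0.33 there, and from -0.49 to 0.39 over all C arrays and -0.37 to 0.33 over all T arrays. Over the 10 arrays the duct score had r = 0.42 with Cst9, as a description. The score of the germ cell list had r = 0.59, and that of the other Sertoli secreted proteins had r = -0.78. The part of duct tissue in the Cst9 levels was not tested.

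Cst12 had levels of -2.31, -1.18, -1.09, -2.32 and -1.84 in C and -1.12, -0.86, -1.58, -1.84 and -1.64 in T. C replicates 1 and 4 were low, and the 4 highest values were C replicates 2 and 3 and T replicates 1 and 2, all on slide 1. The difference was 0.34 ± 0.28, 1.27-fold higher in T, with an interval from -0.29 to 0.96 (limma, adjusted p = 0.9985). The T mean was above the C mean on both slides, by 0.54 ± 0.38 on slide 1 and 0.39 ± 0.17 on slide 2, and with slide as a block the difference was 0.46 ± 0.22 (limma, adjusted p = 1.0). It was 0.20 without C replicate 1, without C replicate 4 or without T replicate 2, each moving it by more than 1.5 times.

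Other cystatins gave no common direction. Of 9 tested genes of that family and the related stefins, 3 were higher and 6 lower in T, with a median of -0.042 and 0 called at an unadjusted p under 0.05. Cst8, a cystatin of the epididymis and testis, differed by -0.21 ± 0.10, the skin cystatin Cst6 by 0.20 ± 0.10 and Cstdc1 by -0.26 ± 0.18 (limma, adjusted p = 0.9985 for each). Cst3, cystatin C, which Sertoli cells also secrete, differed by 0.010 ± 0.084.

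Defb36, the beta-defensin, had levels of 0.84, 1.34, 1.27, 1.5 and 1.01 in C and 1.38, 1.15, 1.23, 0.84 and 1.17 in T. C replicate 1 and T replicate 4 shared the lowest level, C replicate 4 had the highest, and the remaining arrays of both groups were mixed. The difference was -0.036 ± 0.14, with an interval from -0.34 to 0.26 (limma, adjusted p = 0.9985). Of 35 other beta-defensin genes on the array only 9 were bright enough to test. Of these, 2 were higher and 7 lower in T with a median of -0.06. At an unadjusted p under 0.05, 1 of the 9 was called, beside 3.97% of all tested probes: Defb42 at 0.17 ± 0.075 (limma, adjusted p = 0.9985). Defb25 differed by -0.15 ± 0.14 and Defb22 by -0.14 ± 0.18. The mean profile of those 9 genes over the 10 arrays had r = 0.042 and rho = 0.14 with Defb36, as a description.

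**Figure D2:**
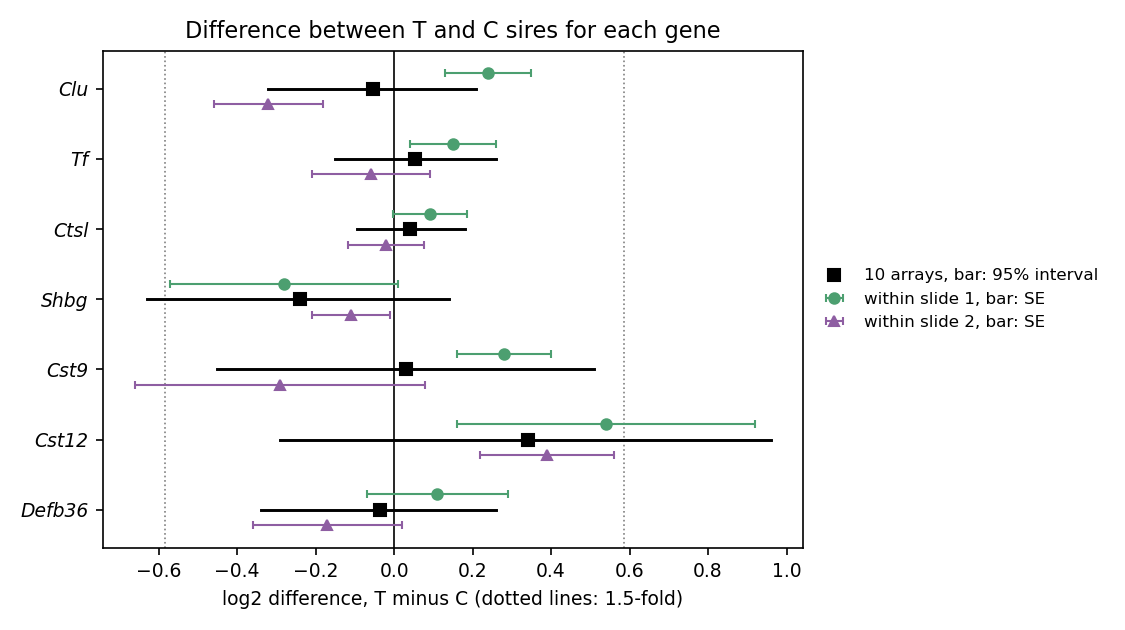
Log2 difference between T and C for each gene, with the value over 10 arrays and its 95% interval (black), and the values within slide 1 (green) and slide 2 (purple) with their SE; dotted lines mark 1.5-fold. All 7 black intervals include 0. The within-slide values lie on opposite sides of 0 for Clu (0.24 and -0.32), Tf, Ctsl, Cst9 and Defb36.

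The 2 slides were compared as well, with group as a term. Slide 2 differed from slide 1 for 9.79% of all tested probes at an adjusted p under 0.05 (2143) and 24.1% at an unadjusted p under 0.05, whereas 0 and 1 of the 7 genes were called. The count of 2143 was 1277 without C replicate 5, 1334 without T replicate 1 and 1410 without T replicate 2. The 1 gene was Cst12, lower on slide 2 with a difference of -0.62 ± 0.22 (limma, adjusted p = 0.118). Without C replicate 1, which was on slide 1 and low, it was -0.81 ± 0.12 and passed (limma, adjusted p = 0.00324). It was then 1 of 1925 probes that passed. Of the other 6 genes, Shbg differed by -0.25 ± 0.16, or -0.10 without C replicate 1, and 5 lay between -0.056 and 0.16.

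The spread between arrays exceeded the spread between repeat spots of a probe for every gene. The pooled within-group SD was 0.075 for Ctsl, lower than that of all but 7.8% of tested probes, 0.15 for Tf, 0.20 for Clu and 0.23 for Defb36, where the median over all tested probes was 0.16. It was 0.30 for Shbg, 0.38 for Cst9 and 0.51 for Cst12, above 83.3%, 90.6% and 96.0% of tested probes. The error of the mean of the repeat spots was smaller by 2.08 times for Ctsl and 2.89 times for Tf, and by 6.81 to 13.2 times for the other 5. Over the 10 arrays, the highest and lowest levels were 2.74-fold apart for Cst12, 2.24-fold for Cst9, 2.22-fold for Shbg, and 1.2- to 1.58-fold for the other 4.

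Tf, Ctsl and Defb36 varied together over the arrays. All 3 were low on C replicates 1 and 5 and on T replicate 4, and high on C replicate 4 and T replicate 1. Of 21 pairs of genes, 3 passed after adjustment by Pearson's r, and these were the pairs within that trio. Tf and Ctsl had r = 0.94 (permutation p = 7e-05, adjusted p = 0.00147) and rho = 0.96 (permutation p = 7e-05, adjusted p = 0.00147). Tf and Defb36 had r = 0.87 (permutation p = 0.00159, adjusted p = 0.0146) and rho = 0.82 (permutation p = 0.00554, adjusted p = 0.0582). Ctsl and Defb36 had r = 0.85 (permutation p = 0.00208, adjusted p = 0.0146) and rho = 0.78 (permutation p = 0.0108, adjusted p = 0.0757). By rank, then, only the pair of Tf and Ctsl passed.

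These correlations were also taken under other settings. With group and slide means removed, r was 0.94 for Tf and Ctsl, 0.95 for Tf and Defb36 and 0.96 for Ctsl and Defb36. Without C replicates 1 and 4, the 2 arrays farthest from the median, it was 0.88, 0.74 and 0.67. After quantile normalization r was 0.81 and 0.76 for the pairs with Tf, but 0.43 for Ctsl and Defb36. Among 11545 genes ordered by their correlation with Tf, Ctsl stood at rank 2 and Defb36 at rank 16, and Tf stood at rank 3 for Ctsl. Over the 9 arrays other than C replicate 1, the correlation of the 75th percentile of the array with the scaled level was -0.84 for Clu, -0.80 for Tf, -0.81 for Ctsl and -0.60 for Defb36, values that 2.2%, 4.1%, 3.5% and 16.2% of tested probes reached or went below. With C replicate 1 included it was -0.58, -0.089, 0.061 and 0.049. The part of the array signal in the covariation was not tested.

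**Figure D3:**
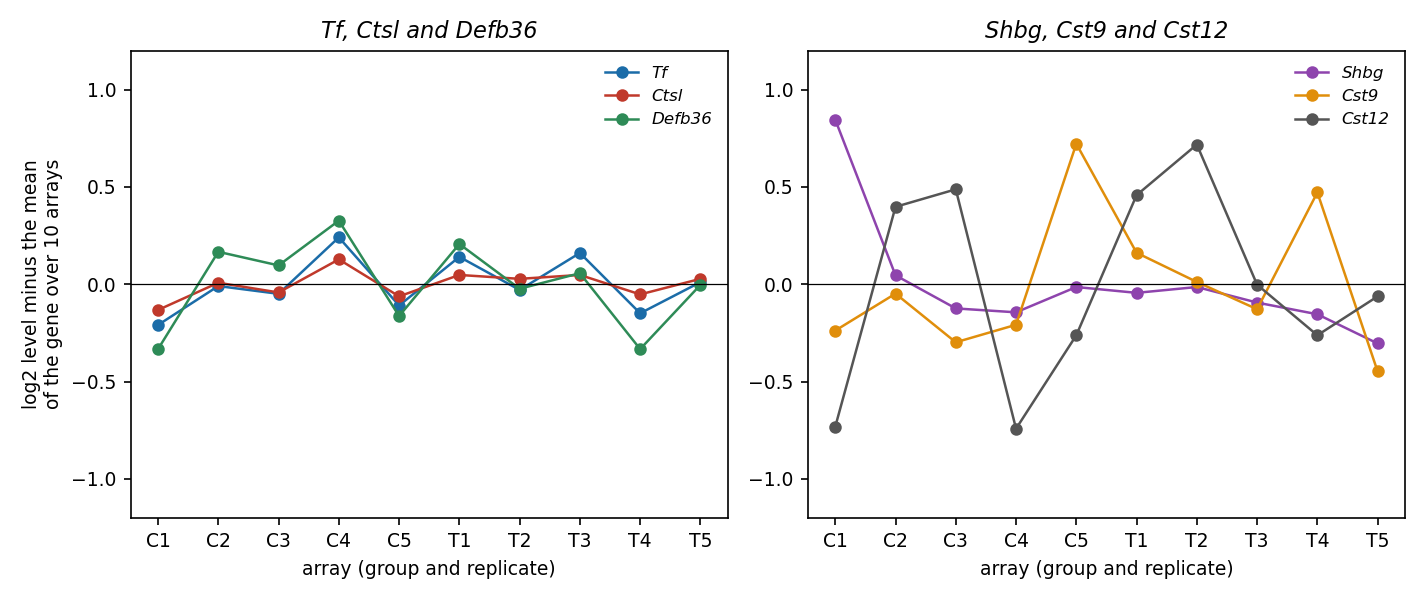
Level of 6 genes on each array as the log2 level minus the gene's mean over 10 arrays, with lines joining arrays only to guide the eye. Tf, Ctsl and Defb36 (left) follow one course, while Shbg, Cst9 and Cst12 (right) peak on different arrays: C replicate 1, C replicate 5 and T replicate 2.

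The other genes did not follow a common course. The lowest of the 21 correlations was -0.64, between Ctsl and Shbg (permutation p = 0.0548, adjusted p = 0.245), and it was -0.15 without C replicate 1. Clusterin had r = 0.62 with Tf (permutation p = 0.0583, adjusted p = 0.245), or 0.30 without its 2 farthest arrays. Cst9 and Cst12, which sit on chromosome 3 with 2 protein-coding genes between them in the RefSeq table, had r = -0.023 (permutation p = 0.95, adjusted p = 0.988). Defb36 is on chromosome 3 as well, with 72 protein-coding genes between it and Cst9, and the correlation of Defb36 with Cst9 was -0.38.

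For each gene, the 3 genes with the most similar profile were picked by Pearson's r over the 10 arrays from 11539 named genes, as a description. For Clu they were Prps1 (r = 0.96), which makes the ribose precursor of nucleotides, Tkt (0.93), the transketolase of the pentose phosphate pathway, and Sdhb (0.91), a subunit of succinate dehydrogenase. For Tf they were Sdsl (0.98), a serine dehydratase-like protein, Cnnm3 (0.92), a magnesium transport mediator, and Glud1 (0.91), glutamate dehydrogenase. Ctsl shared Cnnm3 (0.94) with Tf, followed by Dynlt2b (0.94), a dynein light chain, and Nlrx1 (0.94), a mitochondrial NLR protein. For Defb36 they were Sil1 (0.94), an exchange factor of the endoplasmic reticulum chaperone BiP, the ribosomal protein gene Rpl15 (0.91) and the carbohydrate kinase gene Fggy (0.90).

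The profiles of Shbg and the cystatins were matched by other genes. Shbg had 59 genes with r over 0.9, led by Tecpr1 (0.99), an autophagy protein, Zc3h3 (0.98), a zinc finger protein of mRNA export, and the odorant receptor gene Or1f26 (0.97). By rank these fell to 0.85, 0.62 and 0.65. C replicate 1 held the isolated high level of Shbg, and these correlations were not taken without that array. For Cst9 the genes were Pigl (0.93), an enzyme of GPI anchor synthesis, Slc22a17 (0.89), the lipocalin receptor, and Get1 (0.89), which inserts tail-anchored proteins. For Cst12 they were Tut1 (0.94), a terminal uridylyl transferase, Cks2 (0.93), a subunit of cyclin-dependent kinases, and Hsd17b7 (0.90), an enzyme of cholesterol synthesis. Leaving out the 7 genes themselves, between 1 and 7 genes had r over 0.9 with each of the 6 genes other than Shbg.

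Other proteins that Sertoli cells secrete were tested as the nearest comparison. Of 32 genes, 14 were higher and 18 lower in T, the median difference was -0.0079, and 0 passed after adjustment. At an unadjusted p under 0.05, 1 was higher and 4 were lower, beside 3.97% of all probes in either direction. Gdnf, a Sertoli factor for the self-renewal of spermatogonia, had the smallest p of this list. Its levels were -3.02 to -2.75 in C and -3.36 to -3.05 in T. With 5 of 5 T arrays below every C array, it was among the 0.722% of all probes whose groups did not overlap. Its difference was -0.31 ± 0.080 (limma, adjusted p = 0.9985). The protease inhibitor Timp3 differed by -0.25 ± 0.071 and the growth factor Bmp4 by -0.32 ± 0.12, with the same adjusted p of 0.9985 in limma. Of 19 Sertoli genes whose products are not secreted, 9 were higher and 10 lower, the median was -0.011 and 0 reached an unadjusted p under 0.05. The smallest p among them was that of the homeobox gene Rhox5, -0.52 ± 0.23, followed by Aard at -0.092 ± 0.062 and Dmrt1, the transcription factor of testis identity, at -0.11 ± 0.076.

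Markers of other cells were also compared, and 0 of them passed after adjustment. Of 13 germ cell genes, 10 were higher in T with a median of 0.12, and 3 higher and 1 lower had an unadjusted p under 0.05, beside 3.97% of all probes. Over all tested probes, 41.5% were higher in T. The other calls at that level were 2 of 7 endothelial genes and 1 gene each of the duct, Leydig cell and skeletal muscle lists, all higher in T. Of 20 duct genes, 15 were higher with a median of 0.099. Of 12 Leydig cell genes, 6 were higher and 6 lower, and of 10 peritubular genes 8 were lower with a median of -0.071. Genes of liver and plasma proteins, included because the liver makes most plasma transferrin, were higher in T for 8 of 9 with a median of 0.11. The score of that list ran from -0.22 to 0.053 in C and from -0.13 to 0.18 in T, and its correlation with Tf was -0.36 with or without C replicate 1, while that with Shbg was -0.12 over 10 arrays and -0.69 without C replicate 1. The macrophage list, whose cells are rich in cathepsins, had 8 higher and 7 lower of 15 and a median of 0.00071. Of the endothelial and the erythroid genes, 6 of 7 each were higher in T, with medians of 0.087 and 0.26, the latter the highest median of all 17 lists. Of the skeletal muscle genes 6 of 9 were higher, with a median of 0.12, and of the fat cell genes 0 of 6, with a median of -0.15.

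**Figure D4:**
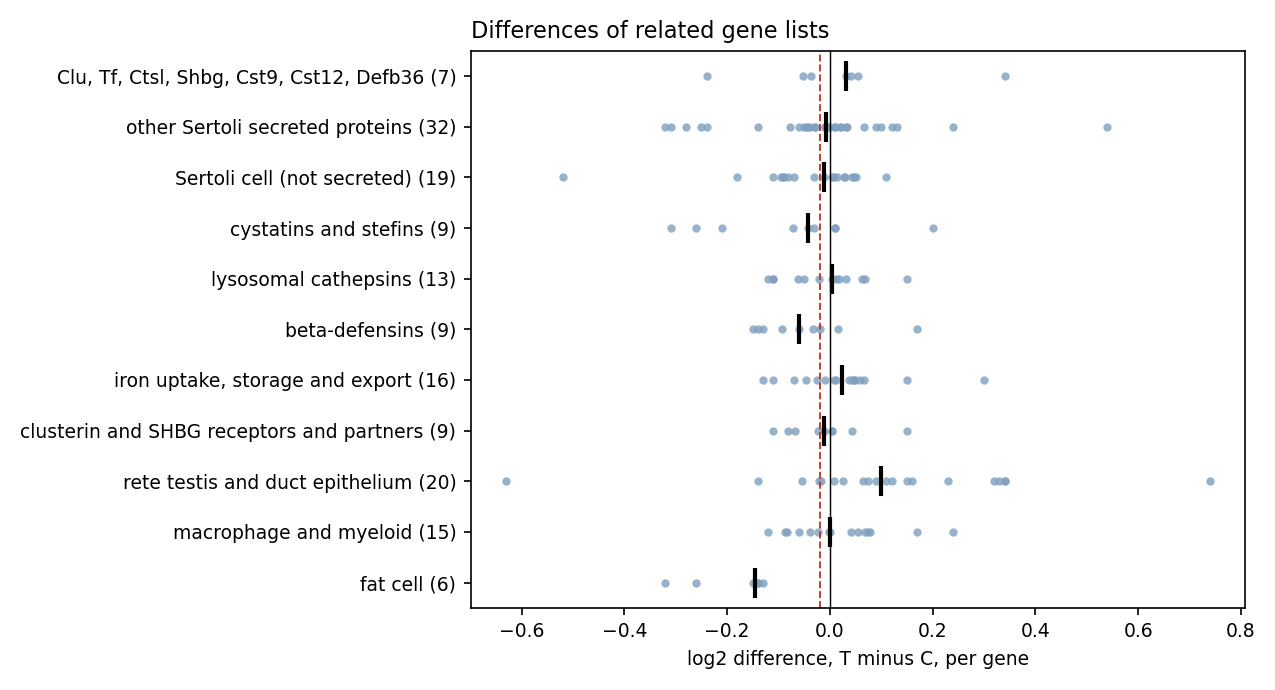
Log2 difference, T minus C, of each tested gene (points) in the 7 secreted protein genes and in 10 related lists, with the number of tested genes in brackets, black bars for medians, and a dashed line at -0.02, the median of all tested probes. Among the lists drawn, the medians lie between -0.15 for the fat cell list and 0.099 for the duct list, and 0 genes passed after adjustment.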

How the data were processed

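The members and gene lists were chosen with earlier results of these data known. The deposited scanner files hold spot intensities, which the authors obtained with Agilent Feature Extraction 10.7.3.1 per the file headers (10.7 in the submitters' processing notes). The software subtracts background, and no scaling between arrays had been applied. A deposited table holds the authors' log2 values for 21220 probes. These correlated at 0.9978 to 0.9987 (slopes 0.994 to 1) with the scanner values after each probe's median over the arrays was subtracted from the latter. The authors' values are thus centred per probe with the direction kept. Their scaling between arrays is unknown. The column medians were 0.0288, 0.000142, -0.0166, 0.0202 and -0.0089 in C and 0.00315, 0.00373, -0.00264, -0.0169 and -0.00227 in T, replicates 1 to 5.

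From the processed signal, log2 was taken and the 75th percentile over the 58717 spots other than the 4259 control spots was subtracted. Outlier spots (494 to 745 an array) were left out, 0 were saturated, and spots of a probe were averaged. Probes well above background on at least 5 arrays were tested: 21892 of 30367. Arrays correlated at 0.9899 to 0.9966, so none was a copy. RefSeq accessions gave 17990 probes a symbol and 12377 none. Groups, and slides with group as a term, were compared with limma 3.58.1 in R 4.3.3 (lmFit, eBayes, two-sided, Benjamini-Hochberg over all tested probes). Correlations used 100000 permutations in Python 3.11.15 with scipy 1.17.1, with p-values adjusted over the 21 pairs. Simulated data were used to check the scripts. The number of arrays limits the precision: the median 95% interval reached to either side by 0.22 on the log2 scale. The text names the 7 genes, the 3 genes outside the 7 most similar to each, and up to 3 genes with the smallest p of each list. Tfrc, Cst3, Fabp4, Retn, Lpl, Lcn12, Cftr, Pax8, Krt19 and Cldn3 were added after values were seen. So were the marker genes of the tissue check, and Adipoq, Cidec, Lep and Plin1. Each list gene is represented by its brightest tested probe.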

Additional observations from a re-analysis of the deposited data

Results flagged for a closer look

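Of 14 sets of 5 arrays (7 genes in 2 groups), 3 had an array far from the other 4, where chance gives about 1 in 20. Shbg was at 3.86 on C replicate 1, and Cst9 at -1.0 on C replicate 5. Ctsl was at 3.22 on T replicate 4, below 3.30 to 3.32 on the other T arrays but inside the range of the C arrays.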

How the results depend on the processing

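In the 24 alternatives, 0 of the 7 genes and 0 of all probes passed after adjustment, and the adjusted p of the genes ran from 0.848 to 1.0. The differences (T minus C) of Shbg and Cst12 kept their direction in all 24, at -0.31 to -0.011 and 0.20 to 0.59. The direction turned within 1 slide for Clu (0.24 in slide 1), Tf (-0.059 in slide 2), Ctsl (-0.021 in slide 2), Cst9 (-0.29 in slide 2) and Defb36 (0.11 in slide 1). For Cst9 it also turned with slide as a block (-0.0018) and with array weights (-0.0051). Leaving out 1 array gave -0.13 to 0.016 for Clu, -0.084 to 0.21 for Cst9 and -0.12 to 0.043 for Defb36. The cause was not tested. Probes at an unadjusted p under 0.05 numbered 483 with normexp against 869. Normexp ran on the median spot signal, and the mean signal was not used here.

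Slide 2 against slide 1 called 1277 probes without C replicate 5 to 2753 without C replicate 3, and 0 to 1 of the 7 genes. The slide differences turned for Clu with quantile normalization (0.0027). Leaving out 1 array they ran from -0.17 to 0.044 for Clu, -0.04 to 0.11 for Tf, -0.022 to 0.051 for Ctsl, -0.081 to 0.28 for Cst9, -0.17 to 0.038 for Defb36 and -0.81 to -0.53 for Cst12.

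Sire numbers 2, 4 and 6 occur in both groups, and deviations of same-numbered arrays from their group means correlated at -0.512, 0.283 and 0.194. The arrays of number 2 lay on different slides, and those of numbers 4 and 6 each shared a slide. The codes of number 2 also differed in their ending, 2R in C and 1R in T. All arrays whose code ends in 2R were on slide 2. Slide was not removed here, so these values cannot show whether the numbers pair the arrays. With the number as a replicate block over these 6 arrays, the difference was 0.065 for Clu, -0.14 for Cst9, and 0.59 for Cst12 (limma, adjusted p = 0.999), the only unadjusted p under 0.05 among 168 fits of single genes, and 697 probes had such a p.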
